A study of Mus musculus with 8 samples.

Results

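Lysosomal enzymes, lysosomal membrane proteins and subunits of the vacuolar proton pump were compared between Estrogen and Vehicle libraries of mouse bone marrow B cells. The set held 42 genes, listed by symbol for their known roles in the lysosome and not by a threshold on measured values, and each was found by its symbol among the 46983 genes of the count table. It comprised 7 lysosomal membrane proteins, 10 proteases, 9 glycosidases and sulfatases, 8 lipid enzymes, cofactors and a phosphatase, 2 transcription factors of the TFEB family and 6 proton pump subunits. All 42 genes passed the filter on low counts and are among the 15175 genes tested.

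Both groups held 4 RNA sequencing libraries of B cells from bone marrow of wild-type (WT) mice, and every library of both groups carried the stress label Hypoxia. The groups differed in treatment, Vehicle or Estrogen, and no sample without hypoxia or without sorting was analysed here. B cells were isolated with magnetic beads, which leaves other marrow cells in a sorted fraction to an unknown extent. Age, sex and the number of animals per library are not given in the labels.

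The lysosome is the acidic compartment in which proteins, lipids, glycans and nucleic acids are degraded. Its acid interior is made by the V-ATPase, a rotary pump whose V1 sector hydrolyses ATP in the cytosol and whose V0 sector carries protons across the membrane. Many lysosomal genes carry CLEAR elements in their promoters, which are bound by TFEB and TFE3. In B cells, lysosomal proteases process internalised antigen and the invariant chain of MHC class II, while macrophages and osteoclasts are known for especially high lysosomal activity.

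The CLEAR core, TCACGTGA, was looked for in the promoters of the 42 genes, because it is the sequence that ties many of them to TFEB. RefSeq windows running from 250 bases before to 50 bases after the annotated start were at hand for 35 genes, 44 windows in all. A gene was counted if any of its windows held the letters. Windows of Npc1, Ctsb, Ctsh, Asah1, Atp6v0d2, Atp6v1b2 and Atp6v1h were not analysed here. The 8 letters, which read the same on both strands, were found in 6 of the 35 genes (17.1%), compared with 2.13% of the 10502 tested genes with a window and 1.12% of all 27025 genes with a window. Each match is given with 11 bases on either side, 5′ to 3′ on the strand of the gene, with the TCACGTGA core in capitals.
Ctsd: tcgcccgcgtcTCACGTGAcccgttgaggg
Cln3: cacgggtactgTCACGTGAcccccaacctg
Mcoln1: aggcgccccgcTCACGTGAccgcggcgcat
Atp6v1a: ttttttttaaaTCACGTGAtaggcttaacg
Atp6v0d1: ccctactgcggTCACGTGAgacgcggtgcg
Ctsa, first match: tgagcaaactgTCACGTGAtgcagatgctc
Ctsa, second match: gatgcagatgcTCACGTGAccagagctaca

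On GRCm38.p6 these stretches lie at chr7:142387908-142387937 (minus strand) for Ctsd, chr7:126583340-126583369 (minus strand) for Cln3, chr8:3500462-3500491 (plus strand) for Mcoln1, chr16:44139373-44139402 (minus strand) for Atp6v1a and chr8:105566050-105566079 (minus strand) for Atp6v0d1. The 2 overlapping Ctsa stretches lie at chr2:164833749-164833778 and chr2:164833766-164833795 (plus strand). The core began 99 bases before the RefSeq start in Ctsd, 122 in Cln3, 46 in Mcoln1, 132 in Atp6v1a and 4 in Atp6v0d1, where it spans the start, and the first Ctsa core began 13 bases before it. The shorter E-box CACGTG, which lies within the CLEAR core, was found in 12 of the 35 genes (34.3%) and in 11.6% of tested genes. ACGTG, the form with A of the hypoxia response element core (A/GCGTG), is itself part of CACGTG. It was found on either strand in 14 of the 35 genes (40%) and in 28.7% of tested genes. These 14 were the 12 genes with CACGTG, together with Cd63 and Neu1, so the 2 counts are largely the same matches. The form GCGTG was not looked for. The palindromic estrogen response element is GGTCA and TGACC with any 3 bases between them. It was found in none of the 35 genes and in 2 of the 10502 tested genes (0.019%). Being that rare, it was unlikely to be found among 35 genes in any case. Single arms and imperfect forms of the element were not looked for. A match describes these letters in these windows only, and says nothing on binding in these cells.

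The libraries held 30181834 to 39088597 counted reads, and values are given as counts per 1000000 reads (CPM) after TMM scaling of the library sizes. All 12 B lineage markers had reads in every library. The same held for all 22 monocyte and macrophage, 9 neutrophil and 10 T and NK cell markers. The presence of reads therefore does not check the labelled cell type. Vehicle 3 stood apart from the other libraries in sex-linked genes, with 3540 reads of the Y-linked gene Ddx3y against 0 to 20 reads in each of the other 7 libraries, and 85 reads of Xist against 15618 to 48066. These reads are those of male cells in Vehicle 3 and of female cells in the other 7 libraries. Vehicle 3 was therefore not made from the same mice as they were, and sex was mixed in Vehicle only. The labels do not state whether each library was made from its own mouse or culture. The p-values therefore rest on variation between libraries that may in part be technical. In edgeR's quasi-likelihood test, 0 of 15175 genes (0.0%) passed an adjusted p of 0.05, and 535 genes had an unadjusted p under 0.05. DESeq2 called 1 gene, with 721 at an unadjusted p under 0.05, and limma-voom called 0, with 500.

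None of the 42 lysosomal genes passed the test in edgeR, and none passed in DESeq2, limma-voom or any other fit that was run, so none can be said to have changed with Estrogen. Adjusted edgeR p-values of the 42 genes ran from 0.860 to 0.993. The fitted values nevertheless leaned to one side: 32 of the 42 genes (76.2%) had a higher value in Estrogen, compared with 48.9% of all genes tested, and their median log2 difference was 0.19, compared with -0.0054 over all genes. At an unadjusted edgeR p under 0.05, 9 of the 42 genes (21.4%) were higher in Estrogen, against a background of 2.27% of all genes tested, and 0 of the 42 were lower, against 1.26%. The 9 genes were Lamp1, Glb1, Ctsd, Cd63, Ctsb, Atp6v0d2, Lipa, Atp6v1a and Npc1. All 4 Estrogen libraries lay above all 4 Vehicle libraries in 4 of the 42 genes (Lamp1, Glb1, Lamp2 and Scarb2), against a background of 0.896%, and all 4 lay below in 0 of the 42, against 0.771%.

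**Figure D1:**
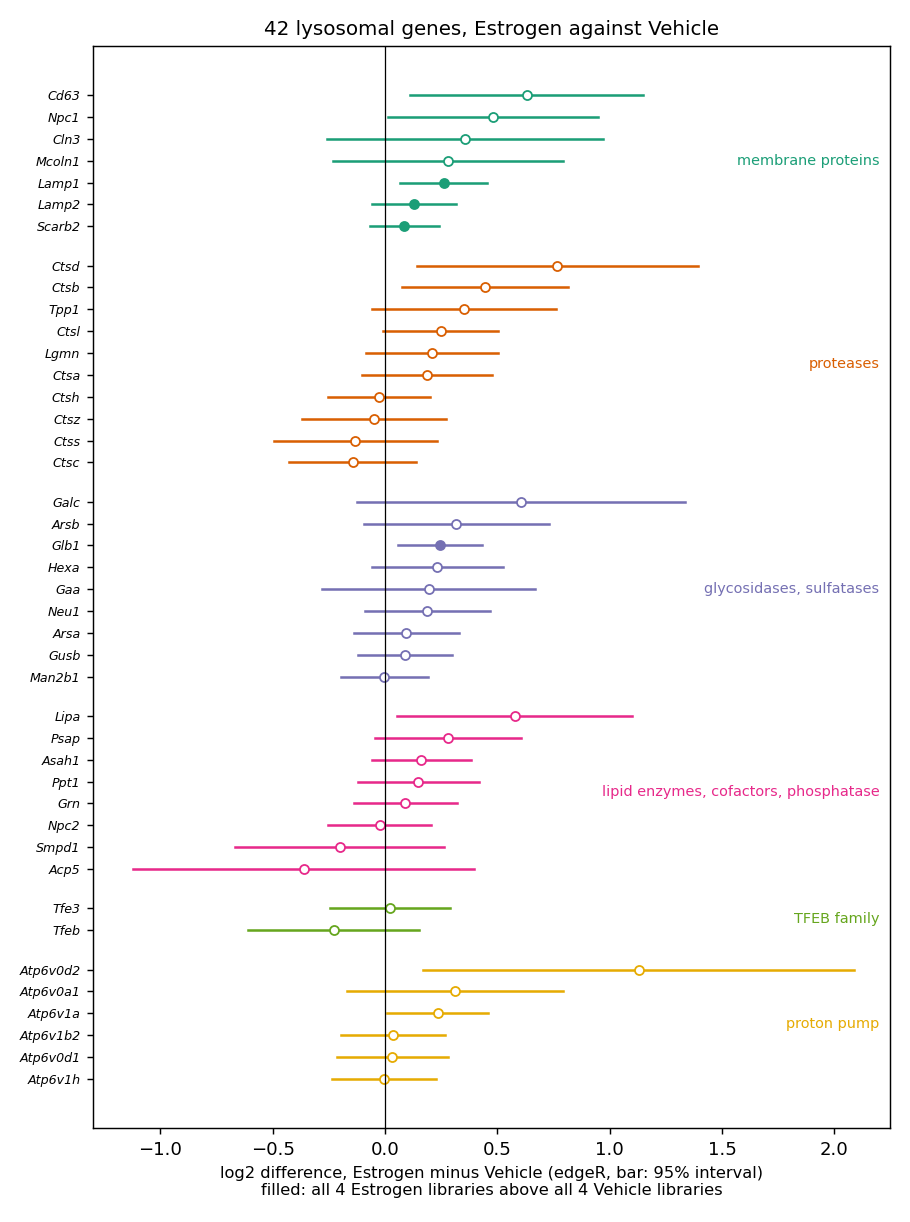
Fitted log2 difference, Estrogen minus Vehicle, of each of the 42 lysosomal genes, grouped by role. Points are edgeR estimates, bars are 95% intervals, the vertical line marks no difference, and filled points mark the 4 genes whose groups do not overlap. All 7 membrane proteins lie to the right of 0, the widest interval belongs to Atp6v0d2, and Acp5 lies farthest to the left.

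The 42 genes shared their libraries, so their counts are not independent of each other. Leaving out each library in turn kept the number of genes with a higher value between 30 and 37 and the median between 0.13 and 0.25. The number higher at an unadjusted edgeR p under 0.05 moved broadly with the share over all genes tested, though not in strict order. It was 2 without Estrogen 2 (0.944% of all genes), 3 without Vehicle 1 (1.17%) and 4 without Estrogen 4 (1.11%). It was 15 without Estrogen 1 (5.95%) and 12 without Vehicle 4, where the share was largest (8.04%). Without Vehicle 3, the library that stood apart in sex-linked genes, it was 7 (2.08% of all genes), with 36 of 42 genes higher and a median of 0.21.

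Among the 7 membrane proteins, all 7 had a higher Estrogen mean, the median log2 difference was 0.28, and 3 were higher at an unadjusted p under 0.05 (42.9%, against 2.27% of all genes). Lamp1 (ENSMUSG00000031447, chr8:13159161-13175338), a heavily glycosylated protein that lines the lysosomal membrane, had the smallest p of the 42 genes. Its level was 350, 370, 375 and 333 CPM in Vehicle 1 to 4 and 410, 449, 429 and 425 CPM in Estrogen 1 to 4 (Vehicle 357 ± 19.3, Estrogen 428 ± 16.3, SD, n = 4 each). The groups did not overlap, and both were tight. Lamp1 had a fitted log2 difference of 0.26 ± 0.087 (SE; edgeR, 95% interval 0.07 to 0.46, adjusted p = 0.860).

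Cd63 (ENSMUSG00000025351, chr10:128900989-128912822) encodes a tetraspanin of late endosomes and lysosomes. It was at 48.3, 65.6, 81.6 and 61.7 CPM in Vehicle 1 to 4 and at 64.0, 139, 90.3 and 105 CPM in Estrogen 1 to 4. Estrogen 1 lay within the Vehicle range and the other 3 Estrogen libraries lay above it. The log2 difference was 0.63 ± 0.23 (edgeR, adjusted p = 0.860), and 11.1% of 50-base stretches of the Cd63 transcripts also occur in another gene, chiefly its pseudogene Cd63-ps, so the reads of these genes cannot be fully told apart. Lamp2, the second major lining protein, ranged over 183 to 188 CPM in Vehicle libraries and 189 to 225 CPM in Estrogen libraries, and Scarb2, which carries glucocerebrosidase to the lysosome, was at 105 to 112 and 112 to 118 CPM. Both sets of groups were separate by a narrow margin, with log2 differences of 0.13 and 0.09. Npc1, which exports cholesterol from the lysosome, had a log2 difference of 0.48 ± 0.21. Cln3, lost in a juvenile form of neuronal ceroid lipofuscinosis, and the cation channel Mcoln1 were at 0.36 and 0.28, with intervals that include 0.

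The 10 proteases fell into a higher and a lower set, with 6 above and 4 below 0 and a median of 0.20. Ctsd (ENSMUSG00000007891, chr7:142375911-142388038), the main aspartic protease of the lysosome, had the largest difference among them. It was at 546, 799, 1060 and 867 CPM in Vehicle 1 to 4 and at 805, 1907, 1217 and 1639 CPM in Estrogen 1 to 4. Estrogen 1 lay between Vehicle 2 and Vehicle 4, whereas Estrogen 2, 3 and 4 lay above every Vehicle library. The log2 difference was 0.77 ± 0.28 (95% interval 0.14 to 1.39, edgeR, adjusted p = 0.860), and it was 0.58 without Estrogen 2 and 0.95 without Estrogen 1. The predicted gene Gm49369 lies over 34.4% of the exon bases of Ctsd on the same strand and was not analysed here, so reads of these genes cannot be told apart there.

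Ctsb (ENSMUSG00000021939, chr14:63122462-63145923), a cysteine cathepsin abundant in phagocytes, was at 1028, 1241, 1298 and 1132 CPM in Vehicle 1 to 4. In Estrogen 1 to 4 it was at 1192, 1899, 1485 and 1824 CPM. As with Ctsd, the groups overlapped through Estrogen 1 alone. Its log2 difference was 0.45 ± 0.16 (edgeR, adjusted p = 0.860). Fdft1, which overlaps 12.8% of its exon bases on the opposite strand, was at 28.1 to 42.6 CPM, far below Ctsb. Tpp1, a tripeptidyl peptidase, Ctsl, a broad cysteine protease, Lgmn, the asparaginyl endopeptidase, and Ctsa, the protective protein of sialidase and galactosidase, had log2 differences of 0.35, 0.25, 0.21 and 0.19, all with intervals that include 0.

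The 4 proteases with a lower mean included Ctss (ENSMUSG00000038642, chr3:95526786-95556403), which cuts the invariant chain in B cells and dendritic cells. Ctss was at 685, 708, 742 and 440 CPM in Vehicle 1 to 4 and at 612, 581, 620 and 537 CPM in Estrogen 1 to 4. The Estrogen libraries all lay inside the Vehicle range, whose lower end was set by Vehicle 4 alone. The log2 difference was -0.13 ± 0.16 (edgeR, adjusted p = 0.868), and it was -0.27 without Vehicle 4 and -0.05 without Vehicle 3.

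Ctsc (ENSMUSG00000030560, chr7:88278085-88310888), which activates granule serine proteases, was at 219, 218, 195 and 155 CPM in Vehicle 1 to 4 and at 200.2, 159.5, 179 and 173 CPM in Estrogen 1 to 4. Ctsz (ENSMUSG00000016256, chr2:174427493-174439039), a carboxypeptidase, was at 361, 370, 355 and 238 CPM and at 351, 306, 315 and 309 CPM in the same order. In both genes Vehicle 4 was the lowest of the 8 libraries. Their log2 differences were -0.14 ± 0.13 and -0.05 ± 0.14 (edgeR, adjusted p = 0.860 and adjusted p = 0.933), and that of Ctsz was 0.0068 when libraries were scaled by their totals. Ctsh, an aminopeptidase, was at -0.03.

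Of the 9 glycosidases and sulfatases, 8 had a higher Estrogen mean, and the median was 0.20. Glb1 (ENSMUSG00000045594, chr9:114401076-114474898), the β-galactosidase of the lysosome, had the second smallest p of the 42 genes. It was at 30.6, 31.2, 28.1 and 30.3 CPM in Vehicle 1 to 4 and at 33.9, 36.0, 36.0 and 36.6 CPM in Estrogen 1 to 4. The groups did not overlap, although they lay close together. Glb1 had a log2 difference of 0.24 ± 0.083 (edgeR, adjusted p = 0.860). Tmppe, which shares 5.5% of the exon bases of Glb1 on the same strand, was at 33.3 to 46.6 CPM, a level close to that of Glb1.

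Galc, the galactosylceramidase, had the largest difference of the group (0.60, interval -0.13 to 1.33) at a mean of 13.0 CPM in Vehicle and 19.8 CPM in Estrogen. Arsb and Hexa, which act on sulfated glycans and on gangliosides, were at 0.32 and 0.23. Gaa, the acid α-glucosidase, was at 0.20, Neu1, the lysosomal sialidase, at 0.19, and Arsa and Gusb, a sulfatase and the β-glucuronidase, both at 0.09. Man2b1, the lysosomal α-mannosidase, was at -0.0036, with 255 ± 10.7 CPM in Vehicle and 254 ± 18.2 CPM in Estrogen. For Arsb 38.5% of 50-base stretches also occur in another gene, and for Arsa 15.8%.

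Of the 8 lipid enzymes, cofactors and the phosphatase, 5 had a higher and 3 a lower mean, with a median of 0.12. Psap (ENSMUSG00000004207, chr10:60277627-60302597), the precursor of the saposins that present sphingolipids to their hydrolases, made up 31.1% to 33.6% of the reads of the 42 genes in each library. It was at 3660, 4049, 4407 and 3935 CPM in Vehicle 1 to 4 and at 4165, 5738, 4511 and 5089 CPM in Estrogen 1 to 4. Estrogen 1 lay below Vehicle 3 and the other Estrogen libraries lay above all Vehicle libraries. Psap had a log2 difference of 0.28 ± 0.14 (edgeR, adjusted p = 0.860).

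Lipa, the acid lipase that releases cholesterol from its esters, was at a log2 difference of 0.58 ± 0.23, with 118 to 168 CPM in Vehicle and 136 to 309.6 CPM in Estrogen. Grn (ENSMUSG00000034708, chr11:102430315-102437048), whose granulin products support lysosomal hydrolases, was at 687, 733, 694 and 613 CPM in Vehicle 1 to 4 and 673, 729, 717 and 784 CPM in Estrogen 1 to 4. Its groups overlapped almost wholly, with a log2 difference of 0.09 ± 0.10 (edgeR, adjusted p = 0.864). Asah1, the acid ceramidase, and Ppt1, a thioesterase, were at 0.16 and 0.15, and the cholesterol carrier Npc2 was at -0.02.

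Smpd1 and Acp5 had a lower mean in Estrogen. Smpd1 (ENSMUSG00000037049, chr7:105554360-105558389), the acid sphingomyelinase, was at 67.1, 57.8, 57.4 and 40.4 CPM in Vehicle 1 to 4 and at 66.6, 39.7, 50.2 and 37.1 CPM in Estrogen 1 to 4. Its log2 difference was -0.20 ± 0.21 (edgeR, adjusted p = 0.860), and the groups overlapped. Acp5 (ENSMUSG00000001348, chr9:22126727-22135711) encodes the tartrate-resistant acid phosphatase by which osteoclasts are stained. It was at 175, 131, 145 and 63.9 CPM in Vehicle 1 to 4 and at 154, 67.3, 110.3 and 68.3 CPM in Estrogen 1 to 4. Each group held both high and low libraries, and the log2 difference of -0.36 ± 0.34 had an interval from -1.12 to 0.40 (edgeR, adjusted p = 0.860). With a library left out, Acp5 ranged from -0.65 without Estrogen 1 to -0.16 without Vehicle 1, and Smpd1 from -0.40 to -0.08 without the same libraries.

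Neither transcription factor of the TFEB family passed the test. Tfeb (ENSMUSG00000023990, chr17:47737030-47792419) was at 196, 153, 195 and 129 CPM in Vehicle 1 to 4 and at 175, 124, 155 and 119.9 CPM in Estrogen 1 to 4, with a log2 difference of -0.23 ± 0.17 (edgeR, adjusted p = 0.860). Tfe3 (ENSMUSG00000000134, chrX:7762560-7775202) was at 45.5, 50.5, 56.1 and 51.6 CPM and at 43.3, 61.3, 52.7 and 49.4 CPM in the same order, with a log2 difference of 0.02 ± 0.12 (edgeR, adjusted p = 0.965). In Tfeb, 2 Estrogen libraries lay below all Vehicle libraries, and in Tfe3 the Estrogen libraries held both the lowest and the highest value. These are transcript levels, and the activity of both factors is set largely by their location in the cell, which was not measured here.

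**Figure D2:**
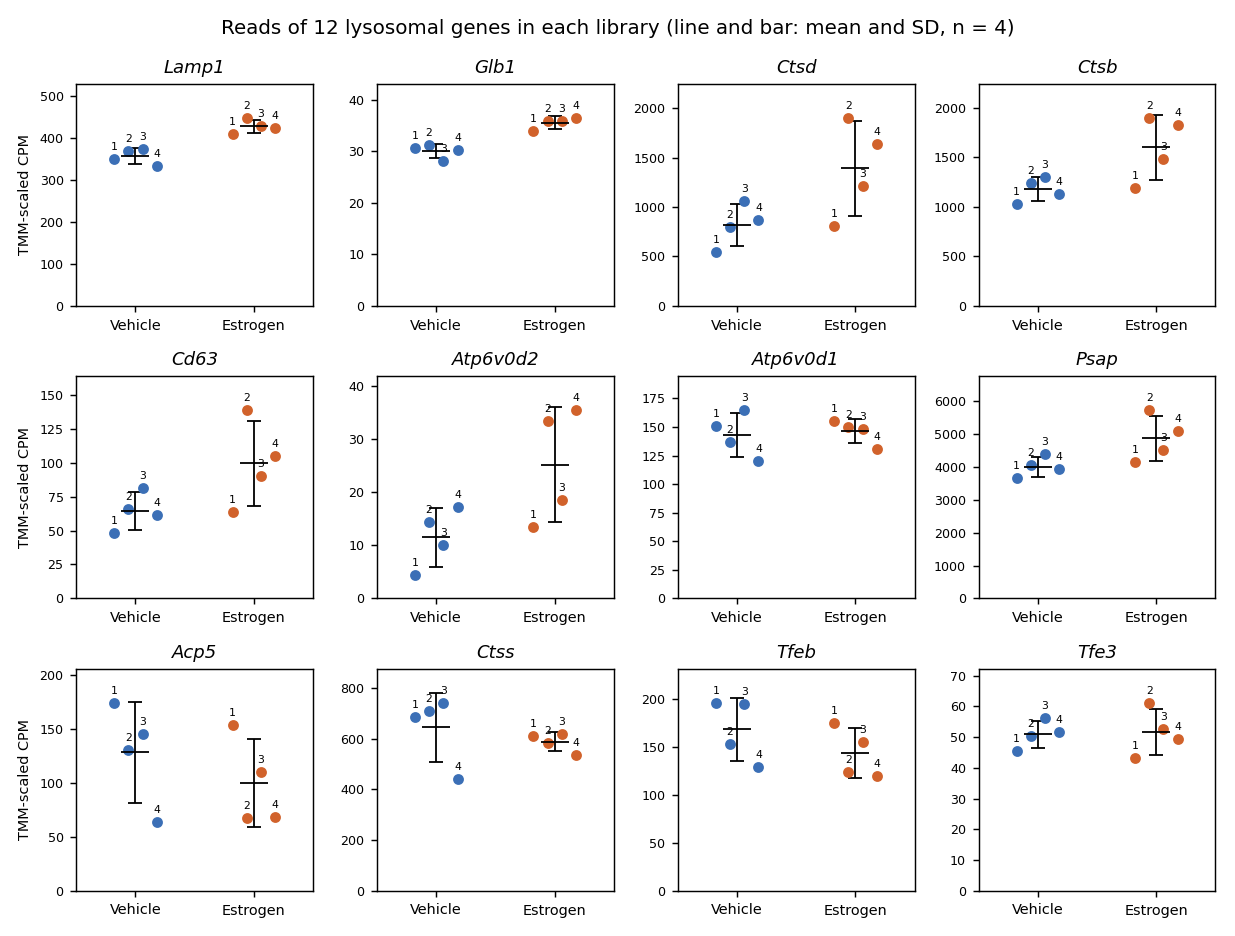
TMM-scaled CPM of 12 lysosomal genes in each library, with points numbered by replicate and bars showing the mean and SD of 4 libraries. In Lamp1 and Glb1 the groups are separate, in Ctsd, Ctsb, Cd63 and Psap Estrogen 1 lies within the Vehicle range, and in Acp5, Ctss, Tfeb and Tfe3 the groups overlap broadly.

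The 6 proton pump subunits had a median log2 difference of 0.13, with 5 above and 1 below 0. The d subunit of V0 has 2 forms: Atp6v0d1, found in most cells, and Atp6v0d2, known from osteoclasts, macrophages and kidney. Atp6v0d2 (ENSMUSG00000028238, chr4:19876841-19922605) had the largest difference of the 42 genes at one of the lowest levels. It was at 4.37, 14.4, 10.1 and 17.2 CPM in Vehicle 1 to 4 and at 13.4, 33.3, 18.6 and 35.5 CPM in Estrogen 1 to 4. Estrogen 2, 3 and 4 lay above all Vehicle libraries and Estrogen 1 lay among them. The log2 difference was 1.13 ± 0.43 with a wide interval from 0.17 to 2.09 (edgeR, adjusted p = 0.860), and it was 0.88 without Vehicle 1.

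Atp6v0d1 (ENSMUSG00000013160, chr8:105524465-105566047) was at 150.5, 137, 165 and 119.9 CPM in Vehicle 1 to 4. In Estrogen 1 to 4 it was at 155, 150.0, 149 and 131 CPM. All 4 Estrogen libraries lay inside the Vehicle range, and the log2 difference of 0.03 ± 0.11 had an interval from -0.21 to 0.28 (edgeR, adjusted p = 0.941). Per kilobase of exon, the mean over 8 libraries was 80.7 CPM for Atp6v0d1 and 6.76 CPM for Atp6v0d2, and no 50-base stretch of either gene occurs in another gene. Of the other subunits, Atp6v1a, the catalytic subunit, was at a log2 difference of 0.23 ± 0.10 and Atp6v0a1, one of the a subunits of V0, was at 0.31. Atp6v1b2 and Atp6v1h, a nucleotide-binding and a regulatory subunit of V1, were at 0.03 and -0.0046.

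The genes with the CLEAR core in their promoter window spanned much of this range, with log2 differences of 0.77 in Ctsd, 0.36 in Cln3, 0.28 in Mcoln1, 0.23 in Atp6v1a, 0.19 in Ctsa and 0.03 in Atp6v0d1. Of the 5 members of the list that lay highest, Atp6v0d2 was without a window, Cd63, Galc and Lipa had a window without TCACGTGA, and Ctsd had one with it.

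Levels were set per kilobase of exon to compare genes. In Vehicle, Psap was the most abundant of the 42 genes at a mean of 1462 CPM per kilobase, followed by Ctss at 474, Ctsd at 348, Ctsz at 229.8, Grn at 196 and Ctsb at 194. Over all 8 libraries Psap remained highest at 1620 CPM per kilobase, Ctsd was at 470.0 and Ctss at 453, and Ctsb and Ctsz were at 229 and 226, so the order of neighbouring genes depended on the libraries included. By the mean over 8 libraries, Galc and Arsb were lowest at 1.10 and 1.64, and Tfe3 was at 5.54. In total the 42 genes took 1.11% to 1.35% of counted reads in Vehicle libraries and 1.26% to 1.79% in Estrogen libraries. Mean level was at least 100 CPM in 29 of the genes and under 20 CPM in 3. The median coefficient of variation over 4 libraries was 13.3% in Vehicle and 14.0% in Estrogen, and the median half-width of the 95% intervals was 0.29 on the log2 scale. A 2-fold difference lay inside the interval in 6 genes, and 25 genes had intervals within 1.5-fold either way.

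The order of the libraries was alike across much of the set. Estrogen 2 was the highest Estrogen library in 23 of 42 genes, compared with 23.9% of all genes tested, and Estrogen 1 was the lowest in 26, compared with 35.5%. Among Vehicle libraries, Vehicle 1 was lowest in 20 of the 42 genes, compared with 29.0% of all genes. Vehicle 4 was lowest in 16 of the 42, a share near the 35.6% of all genes. In Ctss, Ctsz, Ctsh, Ctsc, Npc2 and Acp5 the lowest of the 8 libraries was Vehicle 4, and in Ctsd, Ctsb, Psap, Cd63, Lipa and Atp6v0d2 it was Vehicle 1.

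**Figure D3:**
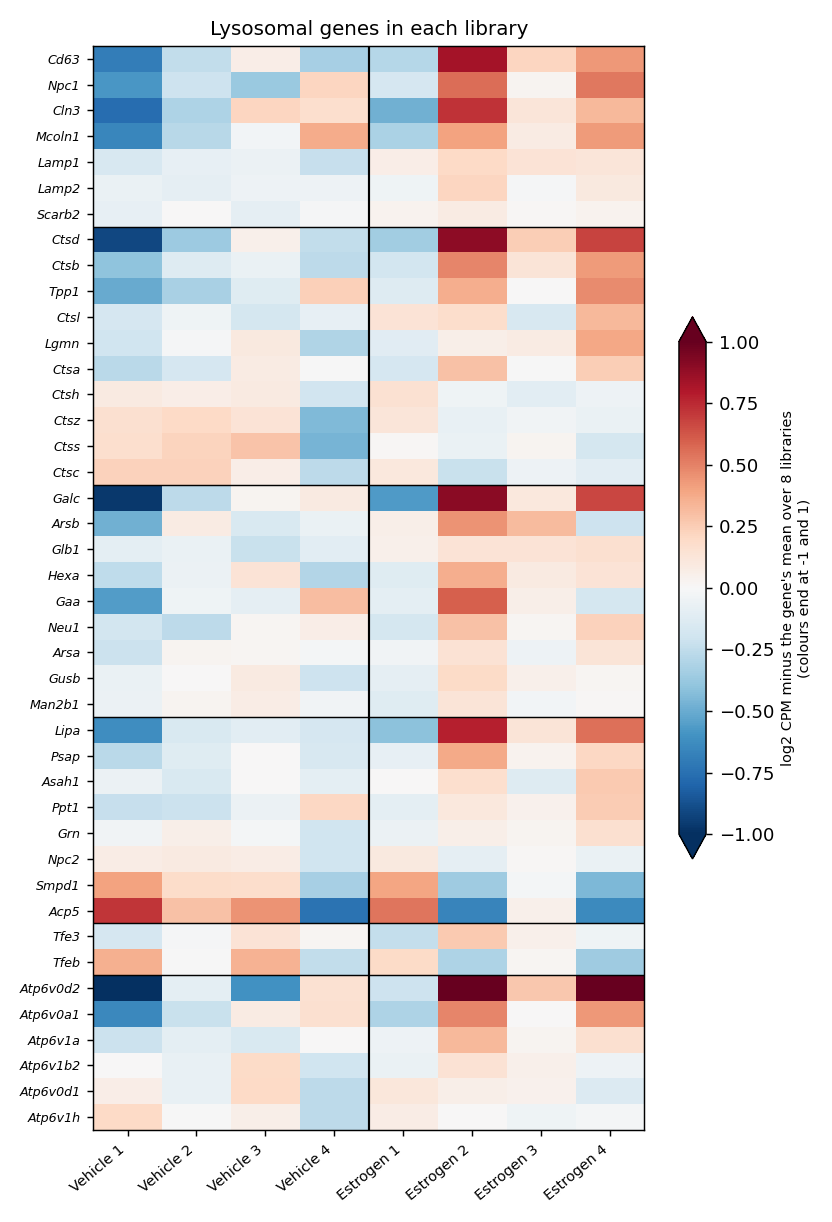
Log2 CPM of each of the 42 lysosomal genes in the 8 libraries, minus the mean of that gene over all libraries, with genes grouped by role as in the plot of differences. Blue is below and red above the gene's mean. Estrogen 2 and Estrogen 4 are red in many rows, Vehicle 1 and Estrogen 1 are blue in many of the same rows, and Acp5, Smpd1 and Tfeb show the opposite order.

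Markers of other marrow cells varied between the same libraries. Of 22 monocyte and macrophage markers, 18 had a higher Estrogen mean (median log2 difference 0.51), none passed the adjusted threshold in edgeR, 6 were higher at an unadjusted p under 0.05 (27.3%, against 2.27% of all genes), and none was at 0 reads in any library. Their summed level was 2756 to 3797 CPM in Vehicle and 3000 to 5606 CPM in Estrogen. Cd68, itself a lysosomal protein of macrophages, had a Vehicle mean of 122 ± 17.1 CPM and an Estrogen mean of 170.3 ± 42.2 CPM, and C1qa, a chain of complement C1q made by tissue macrophages, had means of 18.5 ± 6.11 and 33.7 ± 14.5 CPM. The 4 markers with a lower mean were Fcgr1, Ccr2, Cx3cr1 and Adgre1, at log2 differences of -0.45, -0.31, -0.04 and -0.04. Of 12 B lineage markers, 1 was higher and 11 were lower, with a median of -0.18 and sums of 8815 to 13710 CPM in Vehicle and 7246 to 12000 CPM in Estrogen. Of 9 tested T and NK cell markers, 7 were lower and 2 higher, with a median of -0.76 and a range from -1.03 to 0.64. Cd8b1 and Thy1 were lower at an unadjusted p under 0.05 without overlap of the groups (22.2%, against 0.771% of all genes). Their means were 14.4 ± 0.965 and 1.46 ± 0.356 CPM in Vehicle and 7.07 ± 0.996 and 0.754 ± 0.137 CPM in Estrogen. The summed level of the 10 listed markers went the other way, at 112 to 186 CPM in Vehicle and 129 to 245 CPM in Estrogen, with overlap. Of 7 plasmacytoid dendritic cell markers, 4 were higher and 3 lower, with a median of 0.09 and a range from -0.42 to 0.66. Siglech and Pacsin1 were higher at an unadjusted p under 0.05 (28.6%, against 2.27% of all genes). Siglech had means of 655 ± 189 and 1033 ± 319 CPM. The summed level of the 7 markers was 2581 to 3506 CPM in Vehicle and 2824 to 3444 CPM in Estrogen. No marker of these lists passed the adjusted threshold. Plasma cell and erythroid markers had medians of 0.06 and 0.24. In such bulk samples fewer cells of a type and less RNA per cell cannot be told apart.

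By library, the macrophage markers lay lowest in Vehicle 1 (median deviation -0.84 on the log2 scale) and Estrogen 1 (-0.45), and highest in Estrogen 4 (0.71) and Estrogen 2 (0.54). The 42 lysosomal genes had their lowest median in Vehicle 1 (-0.18) and Vehicle 4 (-0.13) and their highest in Estrogen 2 (0.20) and Estrogen 4 (0.15). The part of RNA from macrophages or other marrow cells in the levels of the lysosomal genes was not tested. The 9 neutrophil markers were high in Estrogen 2 (0.78), Vehicle 3 (0.715) and Estrogen 3 (0.58) and low in Vehicle 4 (-0.64) and Estrogen 4 (-0.60), with a median difference between groups of 0.02.

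**Figure D4:**
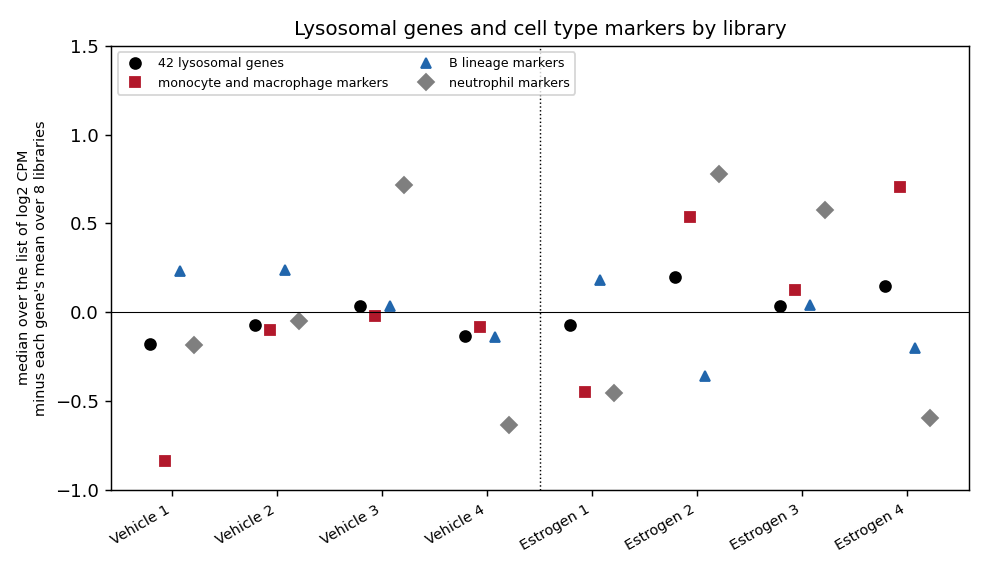
Median deviation of 42 lysosomal genes, 22 monocyte and macrophage markers, 12 B lineage markers and 9 neutrophil markers in each library, as log2 CPM minus the mean of each gene over 8 libraries. Lysosomal genes and macrophage markers both lie below 0 in Vehicle 1 and Estrogen 1 and highest in Estrogen 2 and Estrogen 4, B lineage markers lie lowest in Estrogen 2, and neutrophil markers are high in Vehicle 3, Estrogen 2 and Estrogen 3.

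Acp5, Atp6v0d2 and cathepsin K are known as osteoclast genes, and the defining markers of that cell were near 0. Calcr had 1 read in Estrogen 1 and 0 in the other 7 libraries, Ocstamp had 0 to 1, Dcstamp 0 to 2 and Oscar 0 to 7 reads per library. For Ctsk the Vehicle mean was 3.5 ± 1.0 CPM and the Estrogen mean 2.295 ± 1.029 CPM. Mmp9, which neutrophils also make, was at 197 ± 82.2 and 272 ± 149.7 CPM.

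Further genes of the same pathway were drawn from lists outside the 42 genes, and the difference between these lists and the 42 genes was not tested. Of 102 listed genes 96 were tested, 0 passed the adjusted threshold in edgeR, 64 had a higher mean in Estrogen and the median log2 difference was 0.06. At an unadjusted p under 0.05, 4 were higher (4.17%, against 2.27% of all genes) and 0 were lower (against 1.26%). All Estrogen libraries lay above all Vehicle libraries in 3 of the 96 genes (3.13%, against 0.896% of all genes) and below in 0 (against 0.771%). Among 13 tested further subunits of the proton pump, 8 were higher with a median of 0.02, and the smallest p belonged to Atp6v1c1 at 0.17 and Atp6ap2, an accessory subunit, at 0.09. The largest difference, 0.40 in Atp6v0c, had an interval from -0.50 to 1.30. The other 6 listed subunits were too low to test.

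Of 25 other lysosomal hydrolases and cofactors, 18 were higher with a median of 0.12, and Ctsf, a cysteine cathepsin, and Pld3, which degrades nucleic acids, had the smallest p, at 0.60 and 0.41. Of 17 other membrane proteins and transporters, 11 were higher with a median of 0.07. Tpcn1, a cation channel of endosomes and lysosomes, was at 0.30 ± 0.11 (edgeR, adjusted p = 0.860), with 47.1, 55.5, 52.0 and 63.2 CPM in Vehicle 1 to 4 and 60.4, 73.3, 68.5 and 65.2 CPM in Estrogen 1 to 4. Its groups overlapped through Vehicle 4. Slc11a1, the metal transporter of phagosomes, was at 0.75 with an interval from -0.03 to 1.54.

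Of 10 genes that sort proteins to lysosomes, 7 were higher with a median of 0.06. Those with the smallest p were Sort1, the sortilin receptor, at 0.51 ± 0.21 (edgeR, adjusted p = 0.860) and Igf2r, the large mannose 6-phosphate receptor, at 0.42. Of 18 genes of the TFEB family and its mTORC1 control, 13 were higher with a median of 0.08. Rragd, a Rag GTPase that recruits mTORC1 to lysosomes, was at 0.48 ± 0.17 (edgeR, adjusted p = 0.860), with 15.2, 15.8, 14.5 and 19.5 CPM in Vehicle 1 to 4 and 17.5, 22.2, 21.8 and 29.1 CPM in Estrogen 1 to 4. Estrogen 1 lay within the Vehicle range, as it did in many of the 42 genes. Fnip2, a partner of folliculin, was at 0.70 with an interval from -0.08 to 1.48.

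Of 13 autophagy genes, 7 were higher and 6 lower, with a median of 0.0034. Gabarapl1, which tethers autophagosomes, was at 29.4, 26.6, 29.0 and 29.6 CPM in Vehicle 1 to 4 and at 30.8, 41.96, 30.7 and 41.0 CPM in Estrogen 1 to 4. Sqstm1, the cargo receptor p62, was at 325, 332, 331 and 317 CPM and at 358, 433, 357 and 357 CPM in the same order. Neither gene's groups overlapped, with log2 differences of 0.33 ± 0.13 and 0.21 ± 0.095 (edgeR, adjusted p = 0.860 for both). They were the only 2 of the 13 genes without overlap (15.4%, against 0.896% of all genes higher without overlap). Both were named for having the smallest p of this list.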

How the data were processed

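RNA of 8 libraries, prepared from magnetically sorted bone marrow B cells with an Illumina TruSeq kit, was analysed. The authors deposited read counts per Ensembl gene as raw, unscaled numbers. Of the tools used, CASAVA and Bowtie 0.12.2, with the build mm10, are listed in the submitters' notes on processing. The read counter, the annotation release and the setting for strand were not given in the sources used here. Genes that overlap or share near-identical sequence are therefore less certain, and antisense partners cannot be told apart. Symbols and coordinates were taken from GENCODE M21 on GRCm38, where 46488 of 46983 identifiers (98.9%) matched. Shared sequence was counted as the share of all 50-base stretches of a gene's transcripts that occur in another gene.

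Counts were filtered with filterByExpr, which left 15175 genes with 99.9% of reads, scaled by TMM and fitted with robust glmQLFit in edgeR 4.0.16 (R 4.3.3). The test was two-sided with Benjamini-Hochberg adjustment over all genes tested and a threshold of 0.05, with a biological coefficient of variation of 22.7% across genes. Log2 CPM used a prior count of 2. A count of 3 reads equals 0.078 to 0.102 CPM in these libraries, which covers counting error only. Alternatives were other scalings and filters, DESeq2 1.42.0, limma-voom (limma 3.58.1) with and without sample weights, a replicate block and leaving out each library. Code was tested on simulated data. Promoter windows came from RefSeq on GRCm38.p6, and figures were drawn with matplotlib 3.10.9.

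The 42 genes, the lists and the tests were chosen with earlier results of these data known, and the count of genes at an unadjusted p under 0.05 was added after the data were seen. Values per library are given for the 6 genes with the smallest unadjusted p in each direction and for 11 genes set by name, and up to 2 genes by p are named from each further list. Tests used the 4 Vehicle and 4 Estrogen libraries, grouped by their labels.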

Additional observations from a re-analysis of the deposited data

Results flagged for a closer look

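In 4 of the 84 groups of 4 libraries formed by the 42 genes and both treatments (4.76%), the lowest library stood far from the other 3 by Dixon's criterion (critical value 0.829). Chance flags about 1 in 20 such groups. All 4 cases were in Vehicle. Ctsh was at 248 CPM (248.3) in Vehicle 4 and at 298 to 302 CPM in the other Vehicle libraries. Ctsz was at 238 CPM (238.3) in Vehicle 4 and at 355 to 370 CPM in the others. Npc2 was at 361 CPM (360.5) in Vehicle 4 and at 437 to 441 CPM in the others. Lipa was at 118 CPM (117.8) in Vehicle 1 and at 161 to 168 CPM in the others.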

How the results depend on the processing

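Across 17 other settings, 13 of the 16 genes with values per library kept the sign of their log2 difference under every setting (265 of 272 values), and no lysosomal gene passed an adjusted p of 0.05 or, in the reported fit, of 0.1. The number of the 42 genes with a higher value ranged from 30 to 37 (37 with scaling by library totals, which moved the median of all genes to 0.046) and their median from 0.13 to 0.25. The number of all genes called was 0 in the reported fit and 1 each with the DESeq2 Wald test, limma-voom with sample weights and the replicate block. Correlations of same-numbered libraries across the groups were 0.674, -0.131, 0.08 and 0.554 for replicates 1 to 4. Those of libraries with unlike numbers ran from -0.621 to 0.398. Same-numbered libraries were thus most alike for replicates 1 and 4, and not for replicates 2 and 3. Whether the numbers mark pairs is not given in the labels. Vehicle 3 and Estrogen 3 were not the same cells split by treatment. Vehicle 3 held 3540 reads of Ddx3y and 85 of Xist, and Estrogen 3 held 20 and 26131. The replicate block nevertheless joins these libraries. The replicate block gave 15 lysosomal genes higher at an unadjusted p under 0.05 in place of 9. With the block, 2175 of all genes reached that p in either direction, and 7.17% of all genes were higher at it. Leaving out 1 library at a time, that number ranged from 2 (without Estrogen 2, when 0.944% of all genes were higher at that p) to 15 (without Estrogen 1, 5.95%), against 2.27% in the reported fit. It was 3 without Vehicle 1 and 4 without Estrogen 4. With a library left out the sign turned in 8 of the 42 genes, all within 0.05 of 0 in the reported fit, 3 of them with values per library. Ctsz was at 0.0068 with library totals and from -0.1747 to 0.0204 with a library left out, Tfe3 from -0.0682 to 0.0952, and Atp6v0d1 from -0.0399 to 0.1203. The cause was not tested. The mean level was at least 100 CPM in 29 of the 42 genes, and the spread of 4 libraries per group left a median half-width of the 95% intervals of 0.29 on the log2 scale, before adjustment over 15175 genes.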
